A study of Mus musculus with 6 samples.

Results

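The 2-cell-like state genes are 10 genes whose transcripts mark a rare state of mouse embryonic stem (ES) cells: Zscan4c, Zscan4d, Zscan4f, Tcstv1, Tcstv3, Zfp352, Tdpoz1, Tdpoz2, Gm5662 and Tmem92. A probe set, the unit that the array reports, was taken as a member when its platform annotation names any of these genes, alone or with others. This gave 18 of the 35557 probe sets in the deposited table, and they name 9 of the 10 genes, out of 21335 gene symbols named on the array. Tcstv1 was not matched to a probe set and has no value here. Of the 18, 7 carry 1 gene symbol and 11 carry several. The 3 Zscan4 probe sets each list Zscan4a, Zscan4b, Zscan4c, Zscan4d and Zscan4f. Of the 5 Gm5662 probe sets, 4 list Gm5662 with Gm2022, Gm4027, Gm5039, Gm8300, Gm21319, BB287469 and Eif1a. Another 4 list Tdpoz1 with Tdpoz5, Tdpoz7 and Tdpoz9. Within these last 4, probe sets 10499971 and 10499975 hold the same value on every array, as do 10499973 and 10499977, so the 18 probe sets give 16 distinct rows of values.

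Total RNA was measured on 6 Affymetrix Mouse Gene 1.0 ST arrays, 3 from the parental wild-type (WT) ES cell line w9.5 and 3 from Cl34, an ES cell line labelled Hira-/- and called Hira-null here. HIRA is a chaperone that places the histone variant H3.3 on DNA outside replication. Both lines were undifferentiated and were grown in serum with ESGRO, a preparation of the cytokine LIF, and the design text says that cells were taken at different confluence without tying a degree of confluence to an array. Cl34 is 1 clone, so the absence of HIRA and any other feature of that clone cannot be told apart. The labels number the arrays of each line as biological replicates without saying more, so the p-values here reflect the scatter of these 6 arrays, which may be technical.

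Cells of this state appear and disappear within ordinary ES cell cultures. They express transcripts that the mouse embryo makes when its own genome is first switched on, many of them from gene families present in several near-identical copies and some started from the long terminal repeats of the endogenous retrovirus MERVL. The transcription factor DUX activates much of this programme, and the ZSCAN4 proteins are known for a role in telomere maintenance in ES cells. In bulk RNA such as this, fewer cells in the state and less RNA per cell cannot be told apart.

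Short upstream stretches were compared between some of the copies that share a probe set. They do not show how alike the transcripts are that the probe sets read, and Zscan4a, Zscan4b, Tdpoz5 and Tdpoz7 were not compared. Of the 10 genes, 5 had a window of 250 bases before the annotated start in the RefSeq promoter table (GRCm38.p6): Zscan4c, Zscan4d, Zscan4f, Zfp352 and Tdpoz1. The stretches around a TATA motif are shown for the Zscan4 copies, at chr7:11005631-11005716 (plus strand), chr7:11166188-11166273 (minus strand) and chr7:11397824-11397909 (plus strand), with TATAAA in capitals.
Zscan4c: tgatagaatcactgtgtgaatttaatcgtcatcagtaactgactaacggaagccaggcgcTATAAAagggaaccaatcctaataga
Zscan4d: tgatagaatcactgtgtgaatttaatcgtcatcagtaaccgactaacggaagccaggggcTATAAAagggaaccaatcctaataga
Zscan4f: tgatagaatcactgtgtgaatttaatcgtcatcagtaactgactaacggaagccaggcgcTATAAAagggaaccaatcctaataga
Over these 86 bases Zscan4c and Zscan4f differ at 0 bases, and Zscan4d differs from each at 2. The motif TATAAA, searched on both strands, occurs in 12.4% of the 32851 windows of 250 bases in the table, and in the windows of all 3 Zscan4 members.

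Tdpoz1 and Tdpoz9, which are listed by the same probe sets, are likewise alike over the upstream stretch shown. Their stretches lie on the minus strand at chr3:93676317-93676403 and chr3:94054892-94054978 (GRCm38.p6), with TATATAA in capitals, and differ at 0 of 87 bases.
Tdpoz1: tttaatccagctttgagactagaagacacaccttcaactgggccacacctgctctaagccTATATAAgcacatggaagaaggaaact
Tdpoz9: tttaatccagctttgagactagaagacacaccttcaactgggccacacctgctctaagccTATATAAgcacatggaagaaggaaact
The motif TATATAA occurs on either strand in 3.04% of the windows. TATAAA and TATATAA do not contain each other, though they can overlap.

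Zfp352 has 1 symbol on its probe set and is shown because its arrays did not overlap between the lines. Its whole upstream window, at chr4:90218570-90218819 (plus strand, GRCm38.p6), consists largely of a short unit repeated in tandem.
Zfp352: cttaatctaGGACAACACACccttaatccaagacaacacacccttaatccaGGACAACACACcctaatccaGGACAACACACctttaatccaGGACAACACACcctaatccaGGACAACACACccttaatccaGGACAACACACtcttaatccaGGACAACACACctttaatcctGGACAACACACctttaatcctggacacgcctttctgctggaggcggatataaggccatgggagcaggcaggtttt
The capitals mark GGACAACACAC, which was picked from this sequence as among the longest words that occur 8 times in it, and is found on either strand in 1 of the 32851 windows (0.00304%), which is this window.

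Several facts about the whole table bear on the members. Array medians lay between 4.93 and 5.02 on the log2 scale. A probe set entered the test when 3 or more of the 6 arrays exceeded 3.78, which is the 30th percentile of the table, and 25142 did. The Hira probe set read 6.81 to 7.40 in Hira-null and 7.49 to 7.86 in WT arrays, a difference that did not pass (-0.64, limma adjusted p = 0.352), and how far it covers the deleted part is not stated in the labels. Of the probe sets kept, 1 passed the test, for Dppa3, the gene of the maternal factor Stella, which fell by 2.30 in Hira-null arrays (limma adjusted p = 0.0217). With a single array removed it passed only in the absence of Hira-null replicate 2. The other Dppa3 probe set, 10541515, was lower by 1.94 in Hira-null arrays and did not pass (limma adjusted p = 0.0526). Hira-null replicate 3 stood apart on principal component 1 (41.7% of the variance), and WT replicate 1 and Hira-null replicate 1 were the ends of component 2 (26.8%). The ES cell genes Pou5f1, Nanog and Sox2 read 9.44 or higher on every array, with log2 fold changes of 0.27, 0.05 and -0.11, none of which passed. Differences below are Hira-null minus WT on the log2 scale, with the standard error (SE) from limma, ± is the SD over n = 3 arrays, and p-values are adjusted over all 25142 probe sets by Benjamini-Hochberg.

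Most members read higher in the Hira-null arrays, by less than 2-fold, and none passed the test. Of the 18 member probe sets, 0 passed at an adjusted p under 0.05 (limma adjusted p = 0.220 to 0.945), where 0.00398% of all probe sets did. Values above WT were seen for 16 of 18, where 50.4% of all probe sets read higher. The 7 probe sets with 1 symbol had a median of 0.15, with 5 higher, and the 11 with several symbols a median of 0.48, with 11 higher. At an unadjusted p under 0.05, 9 of 18 were higher and 0 lower in limma, against 4.06% and 6.06% of all probe sets. The arrays of the lines did not overlap for 6 of 18 with Hira-null higher, against 7.09% of all, and for 0 of 18 with Hira-null lower, against 8.17% of all. Counted over the 16 distinct rows, these numbers were 14 higher, 7 higher at an unadjusted p under 0.05 and 4 without overlap, with a median log2 fold change of 0.46, against 0.00 for all probe sets kept. Members of a family can be read by the same probe set, so the 16 rows are not independent. All 18 passed the filter on low values. Zfp352 passed it through the Hira-null arrays only. The 15 distinct rows without it had 13 higher, 6 higher at an unadjusted p under 0.05, 3 without overlap and a median of 0.45.

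**Figure D1:**
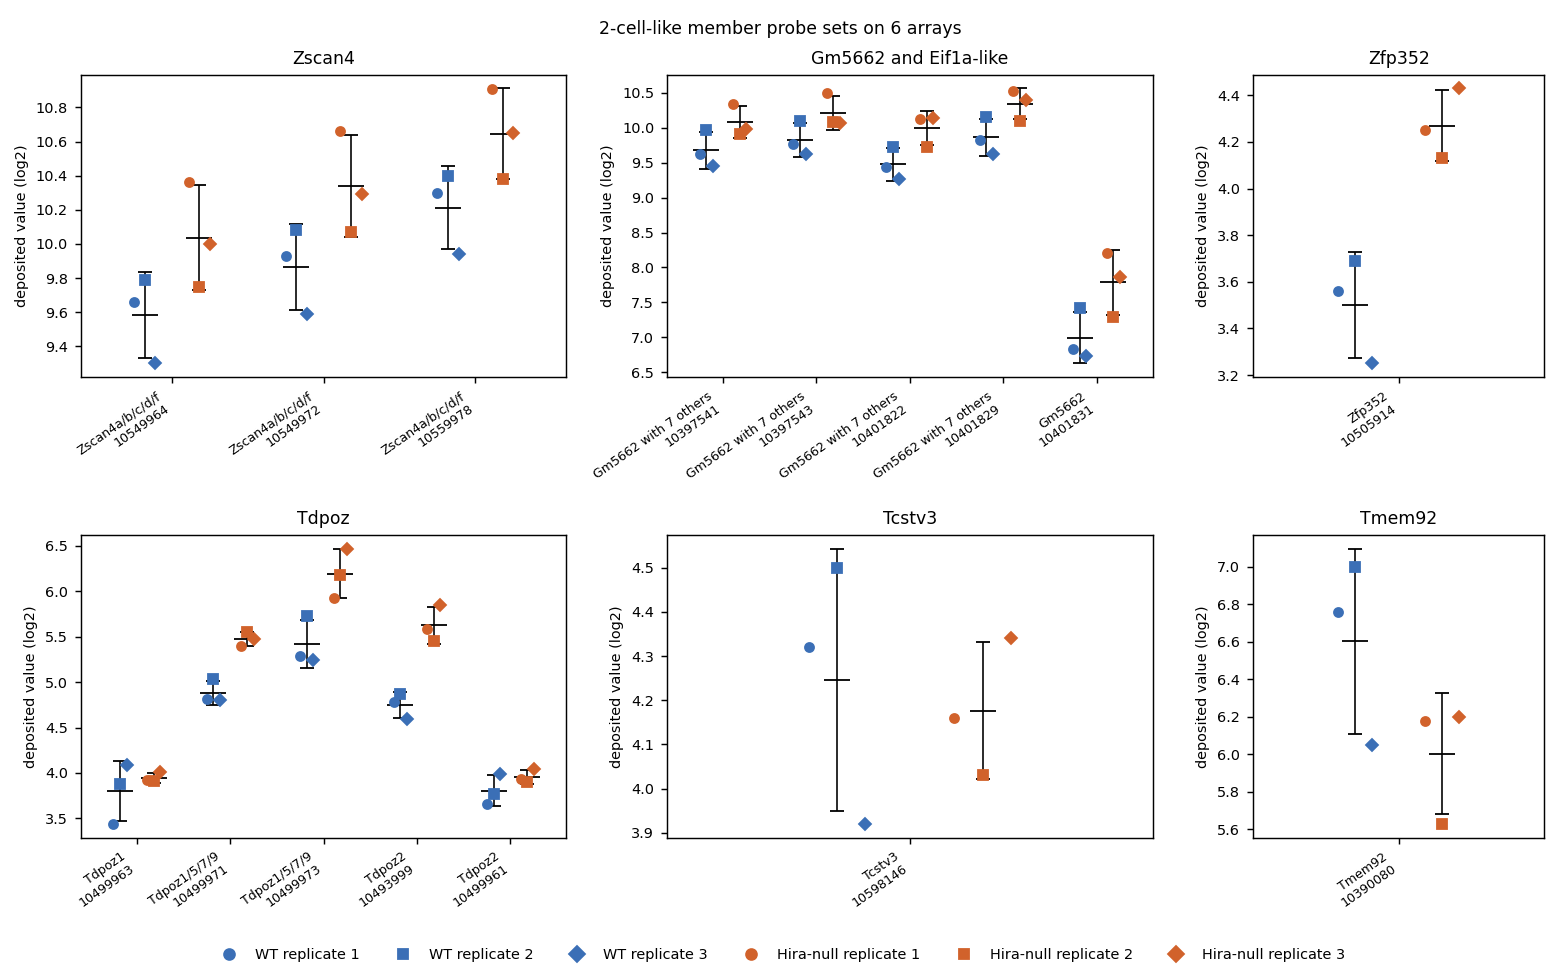
Deposited log2 values of the 16 distinct member probe sets, in 6 panels by gene family with a scale of their own. Points are arrays, blue for WT and orange for Hira-null, with the replicate shown by shape, and bars give the mean ± SD (n = 3). The Zfp352 arrays of the lines are separate, at 3.25 to 3.69 and 4.13 to 4.43, whereas the Zscan4 arrays overlap at each probe set.

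Zscan4 encodes SCAN-domain zinc finger proteins of the 2-cell embryo, from a cluster of copies on chromosome 7. Probe set 10549972 gave 9.93, 10.08 and 9.59 for WT replicates 1, 2 and 3, and 10.66, 10.07 and 10.29 for Hira-null replicates 1, 2 and 3. The same order of arrays is used throughout. Hira-null replicates 1 and 3 lay above every WT array, while Hira-null replicate 2 lay just below WT replicate 2, so the lines overlapped. The line averages, 9.87 ± 0.25 and 10.34 ± 0.30, differed by 0.47 (95% interval -0.01 to 0.95, SE 0.20, limma adjusted p = 0.499). The other two Zscan4 probe sets, 10549964 and 10559978, gave 0.45 (95% interval -0.03 to 0.94) and 0.43 (-0.02 to 0.89). All 3 had WT replicate 3 as the lowest array and Hira-null replicate 1 as the highest. Because the 3 probe sets list the same 5 genes, the values cannot be assigned to Zscan4c, Zscan4d or Zscan4f. Without Hira-null replicate 1 the difference was 0.31 for 10549972 and 0.29 for 10549964, and without Hira-null replicate 2 it was 0.61 and 0.60.

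Gm5662, on chromosome 12, belongs to a family of genes that resemble the translation initiation factor gene Eif1a. Its 1-symbol probe set, 10401831, read 6.84, 7.42 and 6.73 on the WT arrays, against 8.20, 7.29 and 7.87 on the Hira-null arrays. Here too Hira-null replicate 2 lay within the WT values and the other Hira-null arrays lay above all of them. The lines differed by 0.79 (95% interval 0.13 to 1.45, SE 0.28), which is 1.73-fold, with a limma adjusted p of 0.409. Without Hira-null replicate 2 it was 1.04, and without Hira-null replicate 1 it was 0.58. The 4 shared probe sets, 10397541, 10397543, 10401822 and 10401829, gave smaller differences of 0.39 to 0.52, and their lines overlapped as well. The smallest, at 10397543, was 0.25 without Hira-null replicate 1. Those 4 list Eif1a itself among their genes. A probe set that lists Eif1a alone (10455533), added after its values were seen, stood at 7.76, 8.58 and 8.05 in the WT line, compared with 8.55, 8.19 and 7.72 in the Hira-null line, a difference of 0.02 (95% interval -0.64 to 0.68). How much of the shared signal comes from Eif1a was not tested.

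Zfp352, a zinc finger gene known as a marker of 2-cell embryos, had arrays that did not overlap between the lines. It gave 3.56, 3.69 and 3.25 for the WT replicates, and 4.25, 4.13 and 4.43 for the Hira-null replicates. All 3 WT values lay below the filter level of 3.78 and all 3 Hira-null values above it. It entered the test only through the line where it is high, so its difference is given as a description, with averages of 3.50 ± 0.23 and 4.27 ± 0.15 that lie 0.77 apart. When all 35557 probe sets were tested with no filter, its limma adjusted p was 0.264. Over the alternatives its difference ranged from 0.65 to 0.86.

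The Tdpoz genes encode proteins with TRAF-like and POZ domains and lie in a cluster on chromosome 3. Tdpoz2 probe set 10493999 read 4.78, 4.87 and 4.59 on the WT arrays, against 5.58, 5.45 and 5.85 on the Hira-null arrays. The lines were separated by a gap of 0.58, larger than the range within either line (0.28 and 0.40). Its difference of 0.88 (95% interval 0.52 to 1.24, SE 0.15), which is 1.84-fold, was the highest among the members, with a limma adjusted p of 0.220. The other Tdpoz2 probe set, 10499961, read 3.66 to 3.99 in WT and 3.90 to 4.04 in Hira-null arrays, a difference of 0.15 (95% interval -0.17 to 0.47, and 0.04 to 0.24 over the alternatives), so the probe sets of this gene disagree. Its values lie close to the filter level, as do those of the 1-symbol Tdpoz1 probe set 10499963 (3.44 to 4.09 in WT, 3.91 to 4.01 in Hira-null, difference 0.14).

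The probe sets that list Tdpoz1 with Tdpoz5, Tdpoz7 and Tdpoz9 resembled the first Tdpoz2 probe set. Probe set 10499971 stood at 4.81, 5.03 and 4.80 in the WT line, compared with 5.40, 5.55 and 5.47 in the Hira-null line. Probe set 10499973 gave 5.29, 5.73 and 5.24 for the WT replicates, and 5.93, 6.18 and 6.47 for the Hira-null replicates. Neither overlapped between the lines. The log2 fold changes were 0.59 (95% interval 0.29 to 0.89) and 0.77 (0.30 to 1.25), with limma adjusted p of 0.233 and 0.285. Which of the 4 genes gives the signal cannot be read from these probe sets.

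Tcstv3 and Tmem92 did not share the higher values. Tcstv3, a gene expressed in 2-cell embryos, read 4.32, 4.50 and 3.92 on the WT arrays, against 4.16, 4.03 and 4.34 on the Hira-null arrays, with the Hira-null arrays inside the WT range. Its difference was -0.07 (SE 0.18, limma adjusted p = 0.945), with a 95% interval of -0.50 to 0.36, and its sign changed when arrays were left out. Tmem92, which encodes a membrane protein, stood at 6.76, 7.0 and 6.05 in the WT line, compared with 6.18, 5.63 and 6.20 in the Hira-null line. WT replicate 3 lay below 2 of the 3 Hira-null arrays. The difference was -0.60 (SE 0.28, limma adjusted p = 0.534, 95% interval -1.26 to 0.06), and it was -0.40 without WT replicate 2 and -0.88 without WT replicate 3. Tmem92 is the member on chromosome 11, where 82.5% of 1351 genes read lower in Hira-null arrays, with a median of -0.24. On that chromosome 175 genes (13.0%) had a lower log2 fold change than Tmem92.

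**Figure D2:**
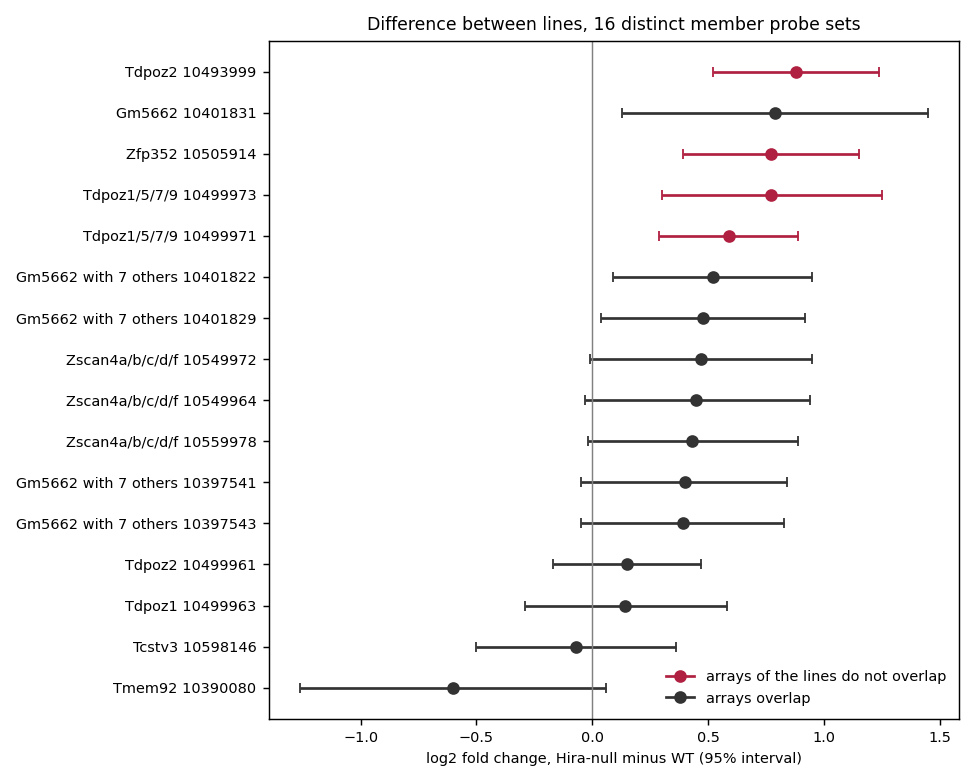
Log2 fold change, Hira-null minus WT, of the 16 distinct member probe sets with 95% intervals from limma, in order of size. Red marks the 4 whose arrays do not overlap between the lines, from 0.59 to 0.88, and the Zscan4 intervals include 0.

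Most members shared an order of arrays within each line. Among the 16 distinct rows, WT replicate 3 was the lowest WT array in 14 and WT replicate 2 the highest in 14. The same held for 30.6% and 34.3% of all probe sets kept. Hira-null replicate 2 was the lowest Hira-null array in 13, against 25.9% of all. The median deviation of the 3 Zscan4 probe sets from their mean over the 6 arrays was -0.15, -0.02 and -0.51 in the WT arrays and 0.55, -0.05 and 0.19 in the Hira-null arrays. For the 5 Gm5662 and Eif1a-like probe sets it was -0.28, 0.05 and -0.48 against 0.46, 0.00 and 0.30. For the 5 distinct Tdpoz rows the medians were -0.41, -0.11 and -0.38 against 0.12, 0.26 and 0.29. By this median Hira-null replicate 2 was not the low array of its line. Row by row, however, it was the lowest Hira-null array at 10493999, 10499961 and 10499963. Hira-null replicate 1 was the lowest at 10499971 and 10499973. Thus Hira-null replicate 2 lay at about the level of WT replicate 2 for Zscan4 and Gm5662, but above every WT array for Zfp352 and for 3 of the 5 Tdpoz rows. Whether the families differ in this respect was not tested.

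**Figure D3:**
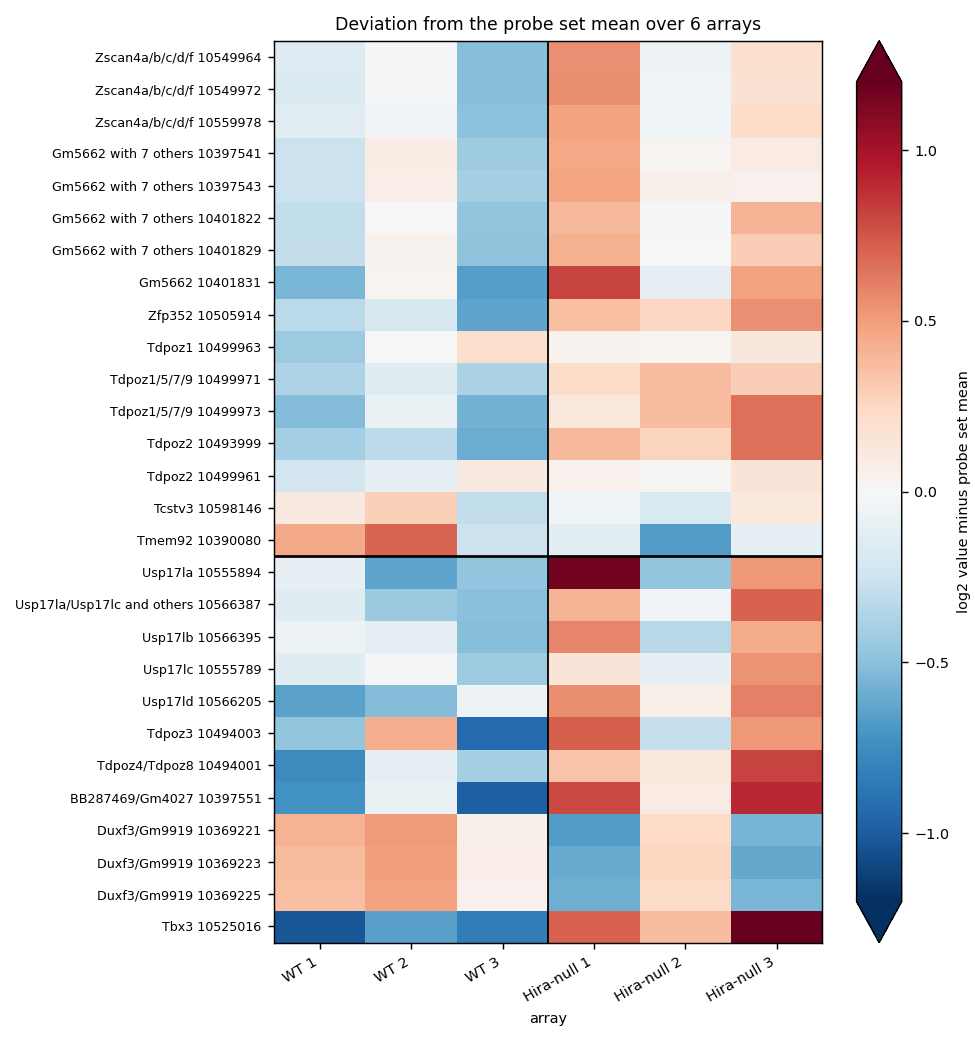
Deviation of each log2 value from the mean of its probe set over the 6 arrays, members above the black line and related genes below it, with the colour scale ending at 1.2 in either direction. Red is higher and blue lower. The 3 rows of Duxf3 with Gm9919 show a pattern unlike that of the Zscan4 rows, with WT arrays higher than Hira-null replicates 1 and 3.

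Other genes of the 2-cell programme were read from a list of 33, of which 15 had a probe set with 1 symbol. Of these, 10 read higher and 5 lower, where 50.4% of all probe sets read higher, and 0 passed the test. At an unadjusted p under 0.05, 1 was higher and 0 lower in limma, against 4.06% and 6.06% of all. The median was 0.22. Without WT replicate 1 that median was 0.10, and without Hira-null replicate 2 it was 0.38. The Usp17l genes, which encode deubiquitinating enzymes, gave the smallest p-values. Usp17ld gave 6.28, 6.40 and 6.86 for the WT replicates, and 7.48, 6.99 and 7.53 for the Hira-null replicates without overlap, a difference of 0.82 (SE 0.22, limma adjusted p = 0.298). Usp17la stood at 0.80 and Usp17lc at 0.40, and their lines overlapped, with Hira-null replicate 2 inside the WT values of both. Usp17la stood at 0.42 without Hira-null replicate 1 and at 1.24 without Hira-null replicate 2, and Usp17lc at 0.23 without Hira-null replicate 3. Ddit4l, an inhibitor of mTOR signalling, stood at 0.51, overlapped, and was at 0.25 without Hira-null replicate 3.

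A further 17 distinct rows come from shared probe sets that list such genes but no member. Of these, 12 read higher (50.4% of all probe sets) and 5 were higher without overlap (7.09% of all). At an unadjusted p under 0.05, 5 were higher and 3 lower in limma (4.06% and 6.06% of all). The 3 lower are the probe sets that list Duxf3 with Gm9919, so they are not independent. None passed, and the median was 0.29. The probe set of BB287469 and Gm4027 (10397551), Eif1a-like genes as is Gm5662, read 5.86, 6.51 and 5.61 on the WT arrays, against 7.38, 6.69 and 7.49 on the Hira-null arrays. Its difference of 1.19 (SE 0.30, limma adjusted p = 0.269) was larger than that of any member. The probe set of Tdpoz4 and Tdpoz8 gave 0.85 (SE 0.24, limma adjusted p = 0.320) without overlap, and 0.49 when WT replicate 1 and Hira-null replicate 3 were omitted. Tdpoz3, read by a 1-symbol probe set, stood at 0.64 (SE 0.40, limma adjusted p = 0.664) and its lines overlapped. The 5 distinct Tdpoz member rows ranged from 0.14 to 0.88.

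The 3 probe sets that list Duxf3, the mouse DUX gene, gave differences opposite in sign to those of most members. All 3 also list Gm9919, so the values cannot be assigned to Duxf3 alone. Probe set 10369221 stood at 6.97, 7.07 and 6.62 in the WT line, compared with 5.88, 6.79 and 6.0 in the Hira-null line. Hira-null replicates 1 and 3 lay below all WT arrays, whereas Hira-null replicate 2 lay between WT replicates 3 and 1. The differences were -0.66, -0.64 and -0.60, with a 95% interval of -1.29 to -0.04 for the first, and none passed (limma adjusted p = 0.461 to 0.483). Hira-null replicate 1, the highest array for Zscan4, was thus among the lowest for the probe sets of Duxf3 with Gm9919.

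Of the other activators, 4 had a probe set with 1 symbol. Tbx3, a T-box factor that has been reported to act upstream of Zscan4 in ES cells, gave 7.60, 7.98 and 7.79 for the WT replicates, and 9.34, 9.0 and 10.06 for the Hira-null replicates. The lines did not overlap, and the difference of 1.68 (SE 0.27, 95% interval 1.03 to 2.32) did not pass the test (limma adjusted p = 0.220). Dppa2 and Dppa4, which bind and activate the Dux promoter, read 0.05 and -0.02 at their probe sets with the highest mean, and Nelfa read 0.00. The sign for Dppa2 and Dppa4 depended on the arrays used, with ranges over the alternatives of -0.21 to 0.46 and -0.18 to 0.22. Hira-null replicate 3 was the lowest array for both Dppa genes, at 9.45 for Dppa2 and 8.27 for Dppa4.

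Repressors of the state showed small differences. Of 20 listed, 19 were measured, and 8 read higher and 11 lower, where 50.4% of all probe sets read higher. Of the 19, 0 passed, and 0 reached an unadjusted p under 0.05 in limma, against 4.06% higher and 6.06% lower of all. The median was -0.04 and the range -0.43 to 0.19. Those with the smallest p were Sumo2, of the SUMO pathway, at -0.24, the CAF-1 chaperone subunit gene Chaf1b at -0.21, Zfp42, which encodes REX1, at -0.43, and the histone H3K9 methyltransferase gene Ehmt2 at 0.19. Over the alternatives they kept their signs, and Zfp42 moved the furthest, from -0.62 to -0.17. Sumo2 lies on chromosome 11 and Zfp42 on chromosome 8, the chromosomes with medians of -0.24 and -0.27.

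**Figure D4:**
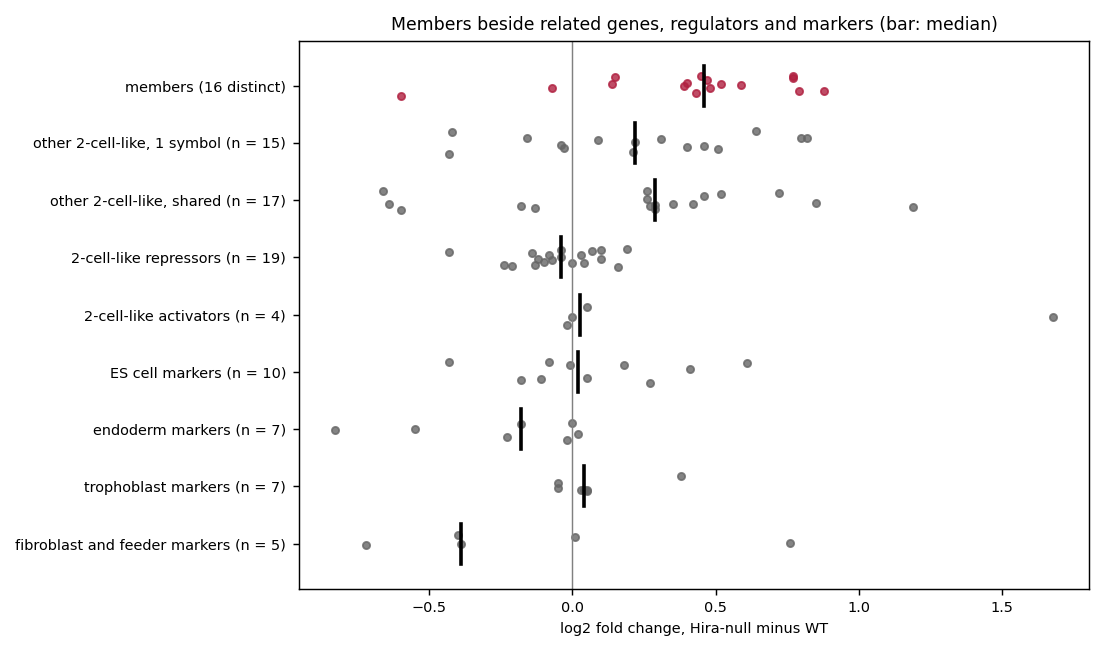
Log2 fold changes, Hira-null minus WT, of the 16 distinct member rows (red) beside other 2-cell-like genes, their regulators and cell type markers (grey), each point a probe set and each black bar the median of its list. The member median is 0.46, the medians of other 2-cell-like genes are 0.22 and 0.29, and that of the repressors is -0.04.

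Markers of other cell types were read beside the members. Endoderm markers had 6 of 7 kept genes at or below 0 (median -0.18), with Afp and Ttr below the filter. Gata6, at -0.55, and Dab2, at -0.83, were lower without overlap (2 of 7, against 8.17% of all probe sets). Dab2 was highest in WT replicate 1, at 7.94, and stood at -0.46 without it. Their values, turned to a linear scale and summed over 9 genes, were 427 to 631 in WT and 328 to 440 in Hira-null arrays. Trophoblast markers had 5 of 7 higher (50.4% of all probe sets), with differences of -0.05 to 0.38 and Elf5 below the filter. Their sums over 8 genes were 342 to 469 in WT and 341 to 570 in Hira-null arrays. Among them Krt7 read 7.67 on Hira-null replicate 3 and 7.01 on WT replicate 1, against 5.26 to 5.71 on the other arrays. Fibroblast and feeder markers had 3 of 5 lower (median -0.39), from -0.72 for Col1a2 to 0.76 for Thy1. Without overlap, 2 of the 5 were lower (Col1a2 and Twist2) and 1 higher (Thy1), against 8.17% and 7.09% of all. Dcn, Lum and Postn lay below the filter, and sums over 8 genes were 297 to 485 and 262 to 446. WT replicate 1 was also the highest array for Col1a2 and Col1a1, which stood at -0.34 and -0.06 without it, against -0.72 and -0.39 with it. Among 10 ES cell markers 5 were higher and 5 lower (median 0.02). Tfcp2l1, at 0.61, and Klf4, at 0.41, were higher without overlap (2 of 10, against 7.09% of all). None of these genes passed the test, and the part of such cells in the member values was not tested.

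Results were also taken without the arrays at the ends of the principal components. Without Hira-null replicate 1, an end of component 2, the median over the 18 member probe sets was 0.35 in place of 0.48. Of the members, 16 were higher and 6 had an unadjusted p under 0.05 in limma, where 2390 of all 25142 probe sets did. In that setting Zscan4 (10549972) stood at 0.31, Gm5662 (10401831) at 0.58, Zfp352 at 0.78 and Tdpoz2 (10493999) at 0.90. Without WT replicate 1, the other end of component 2, and Hira-null replicate 3, the end of component 1, the member median was 0.49. With this pair omitted 15 members were higher and 6 were at that level, where 2562 of all 25142 probe sets were. There Zscan4 (10549972) stood at 0.53, Gm5662 (10401831) at 0.67, Zfp352 at 0.72 and Tdpoz2 (10493999) at 0.79.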

How the data were processed

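The deposited table holds log2 expression values, which the authors made with GCRMA (background correction and quantile normalization), per the submitters' processing notes, with no version. The build was not given in the sources used here. Values run from 1.14 to 14.03 and were used as they stand, so a shift common to the whole transcriptome is not visible. The number of arrays limits the precision (median SE 0.17). The platform table named 23410 probe sets, 1621 of them with several symbols. Symbols were updated through Entrez identifiers (GRCm38.p6 gene table, 21698 of 21789 1-symbol probe sets matched), and chromosomes come from the same table.

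Hira-null minus WT was fitted in R 4.3.3 on the 6 arrays by limma 3.58.1 (lmFit, eBayes, two-sided, no covariates), adjusted over 25142 probe sets kept, threshold 0.05, and tested on simulated data. For other lists each gene is its 1-symbol probe set with the highest mean. Members and lists (other 2-cell-like genes, repressors, activators, ES cell, endoderm, trophoblast, fibroblast and feeder markers) were chosen with earlier results of these data known. Every member probe set is named, and from other lists up to 4 genes with the smallest p, with Hira, Dppa3, Pou5f1, Nanog and Sox2. Genes below the filter, some shared probe sets and some further listed genes are named in addition, without a fixed rule. Alternatives were 2 filters, 2 normalizations, eBayes with trend and robust, arrayWeights, the replicate number as a block, and leaving out arrays.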

Additional observations from a re-analysis of the deposited data

How the results depend on the processing

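No member probe set passed under any of the 14 alternatives (lowest limma adjusted p = 0.112), and 244 of 248 member log2 fold changes kept their direction. The exceptions are Tcstv3, at -0.23 to 0.06 when each array was left out in turn (0.00 without Hira-null replicate 2), and the 1-symbol Tdpoz1 probe set, at -0.04 to 0.29 (-0.04 without WT replicate 1), and at -0.07 when WT replicate 1 was omitted along with Hira-null replicate 3. The stricter filter, at 4.99, kept 14 of the 18 member probe sets. Over single-array omissions, 6 to 12 member probe sets had an unadjusted p under 0.05 in limma, where 1842 to 2730 of all 25142 probe sets did. In these settings 15 to 17 members were higher and the member median was 0.35 to 0.60. Over all genes, 1 probe set was called, and 2 with the stricter filter, 2 with median centring, 5 with arrayWeights, 0 with that pair of arrays omitted (2562 at an unadjusted p under 0.05 in limma) and 0 to 41 when each array was left out (41 without Hira-null replicate 2, none of them a member). Same-numbered arrays did not deviate together (correlations -0.34, 0.17 and -0.10), and differently numbered ones gave -0.41 to 0.44. With 3 arrays per line these values cannot settle whether the numbers pair the samples. The replicate block called 0 probe sets in limma (2122 at an unadjusted p under 0.05), with 6 member probe sets at that level. The median of all probe sets moved by at most 0.01 with another scaling.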

Other observations

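Shared probe sets of Sp110, a nuclear body gene linked to the 2-cell programme, disagreed. The probe set that lists Sp110 with Gm15753 and LOC102638047 (10534909) stood at 0.52 without overlap between the lines. The others overlapped, at 0.46 for 10347928 and 10582874, which hold the same values, 0.29 for 10356278, -0.13 for 10582868 and -0.18 for 10356248. The preimplantation genes Pramel6 and Pramel7 stood at -0.43 and -0.16 and overlapped, with -0.61 to -0.20 for Pramel6 over the alternatives. AF067061 stood at 0.21 (-0.07 to 0.45 over the alternatives) and AF067063 at -0.04, and neither passed the test (limma adjusted p = 0.857 and 0.970).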
